A study of Mus musculus with 12 samples.

Results

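The 6 genes described here are *Tek*, *Tie1*, *Angpt1*, *Angpt2*, *Ptprb* and *Svep1*, the angiopoietin-Tie receptor axis together with the large matrix protein gene *Svep1*. They were chosen by gene name, as the rows whose symbol was 1 of these 6, out of 19564 genes listed in at least 1 of the deposited tables. The list was drawn up with the differences between AS and WT of these same libraries known, so it was in part selected on those values, and the AS over WT values below are a description with no test. All 6 genes were listed in both tables, which hold 17811 genes for dimtdT and 17521 for brighttdT cells.

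The libraries are poly-A RNA-seq of glomerular endothelial cells (GEC) sorted from C57BL/6 mice of 4 months by the brightness of a tdTomato reporter, into dimtdT and brighttdT cells (dim and bright from here on). Every mouse carried the Tek-Cre driver and the tdTomato reporter at the ROSA26 locus, and was either wild type (WT) or lacked a working *Col4a5* (Col4a5 -/-, the Alport syndrome or AS mice). *Col4a5* encodes the α5 chain of type IV collagen in the glomerular basement membrane. With 3 mice per genotype and 1 dim and 1 bright library per mouse, the 12 libraries form 4 groups of 3, WT-dim, AS-dim, WT-bright and AS-bright. The reporter itself is transcribed from a general promoter once Cre has acted, so its colour marks any cell with *Tek* promoter activity in its history, and the *Tek* promoter is known to be active in the lineage of blood cells as well. In bulk RNA, fewer cells of a type and less RNA per cell cannot be told apart.

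*Tek* encodes Tie2, the receptor tyrosine kinase of endothelial cells that binds the angiopoietins, and *Tie1* encodes its close relative, which has no well-established ligand of its own and modulates Tie2. Angiopoietin 1, a product of perivascular cells and podocytes, activates Tie2 and keeps vessels quiescent, whereas angiopoietin 2 is stored and released by endothelial cells and mostly works against it. The phosphatase VE-PTP, encoded by *Ptprb*, removes phosphate from Tie2 and from VE-cadherin. SVEP1 is a secreted protein of the extracellular matrix that binds the integrin α9β1 and is needed for lymphatic vessel growth, where *Tie1* and *Tek* act as well.

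Of the promoter sequences in RefSeq, those of *Tek*, *Tie1* and *Svep1* could be matched, and the 250 bases upstream of the RefSeq start are shown for *Tek*, since its promoter drives the Cre of the reporter, and for *Svep1*, since it had the highest AS over WT fold change in the bright cells. The *Tie1* stretch lies in an annotated UTR and is not shown. Capitals mark the ETS core GGAA on either strand (TTCC on the printed strand), the letters that ETS family factors such as those active in endothelial cells bind. The *Tek* stretch is chr4:94739039-94739288 on the plus strand and the *Svep1* stretch chr4:58206597-58206846 on the minus strand of GRCm38.p6, each printed 5′ to 3′ along its gene. In Gencode M21 no exon overlaps the *Tek* stretch. The *Svep1* stretch ends at the start of the protein-coding transcript, but all 250 bases lie in the first exon of a noncoding *Svep1* transcript that starts further upstream, at 58206859, and its last 39 bases in an exon of *Gm26889*.
Tek: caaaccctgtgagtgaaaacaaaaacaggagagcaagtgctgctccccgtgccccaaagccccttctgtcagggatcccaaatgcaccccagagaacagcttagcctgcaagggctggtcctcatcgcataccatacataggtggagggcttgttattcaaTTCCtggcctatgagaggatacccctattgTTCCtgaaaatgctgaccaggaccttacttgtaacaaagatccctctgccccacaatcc
Svep1: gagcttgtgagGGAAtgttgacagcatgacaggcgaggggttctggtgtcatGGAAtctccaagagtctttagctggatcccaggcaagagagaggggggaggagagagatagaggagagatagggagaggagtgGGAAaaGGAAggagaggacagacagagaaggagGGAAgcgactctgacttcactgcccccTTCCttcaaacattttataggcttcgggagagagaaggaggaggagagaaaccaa
The *Tek* stretch held 2 matches to the core and the *Svep1* stretch 6. The core is common, since 93.5% of 32851 promoter windows held it at least once, with a median of 3 matches. As many matches as in *Tek* were found in 76.8% of the windows, and as many as in *Svep1* in 8.69%. Neither stretch held the GATA core GATAA, found in 22.6% of windows, or the FOXO core GTAAACA, found in 3.17%. These letters describe the windows only and no binding was measured.

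*Tek* lies on chromosome 4 (94739289 to 94874976, plus strand, GRCm38), *Tie1* on chromosome 4 (118471191 to 118490061, minus strand) and *Svep1* on chromosome 4 (58042442 to 58206859, minus strand). *Angpt1* lies on chromosome 15 (42424723 to 42676977, minus strand), *Angpt2* on chromosome 8 (18690263 to 18741562, minus strand) and *Ptprb* on chromosome 10 (116275523 to 116389535, plus strand). All 6 are protein-coding, and reads were counted over their exons, UTRs included. No annotated gene overlaps *Tek* or *Tie1*, whereas an exon of *Angpt2* overlaps *Mcph1*, one of *Angpt1* the antisense gene *Gm17473* and one of *Svep1* the noncoding gene *Gm26889*, each on the opposite strand. The strand used for counting is not given in the sources used here, so reads of such overlaps cannot be assigned. *Mcph1* had 16 to 50 counts per library.

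The sorted groups were checked against cell type markers before the genes were compared. In the 6 bright libraries the summed level of 14 endothelial markers was 10940 to 18980 CPM (counts per 1000000 counts, on a common TMM scale), against 37.1 to 79.2 CPM for the 8 of 14 leukocyte markers listed there. In the dim libraries the order was the other way round, although they carry the same label of GEC. The endothelial markers summed to 748 to 1379 CPM in WT-dim and to 231 to 326 CPM in AS-dim, and the 14 leukocyte markers to 4084 to 6994 and to 8630 to 10570 CPM. The general leukocyte gene *Ptprc* reached 698 to 1447 CPM in the dim libraries and the endothelial cadherin gene *Cdh5* 8.69 to 55.9 CPM. The 10 proximal tubule markers summed to 1324 to 6372 CPM in WT-dim and 375 to 2525 CPM in WT-bright, against 19.6 to 380.0 and 23.5 to 449 CPM in AS-dim and AS-bright. Within a genotype the highest tubule sums came from the same animal in both gates, WT mouse 1 and AS mouse 2. Podocyte markers (9 of 9 listed) summed to 826 to 1621 CPM over the 12 libraries. The listed mesangial and mural markers (8 of 10 in dim, 10 in bright) summed to 122 to 215 CPM in WT-dim and 61.5 to 110 in AS-dim. In WT-bright they summed to 455 to 934 CPM and in AS-bright to 480 to 838. The mutated gene *Col4a5* was at 37.1 to 73.9 CPM in WT-dim and at 1.36 to 3.61 CPM in AS-dim, but at only 4.92 to 9.996 CPM in WT-bright and 3.13 to 6.79 CPM in AS-bright, where the groups overlapped. The part that this mixture of cells plays in the results below was not tested.

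**Figure D1:**
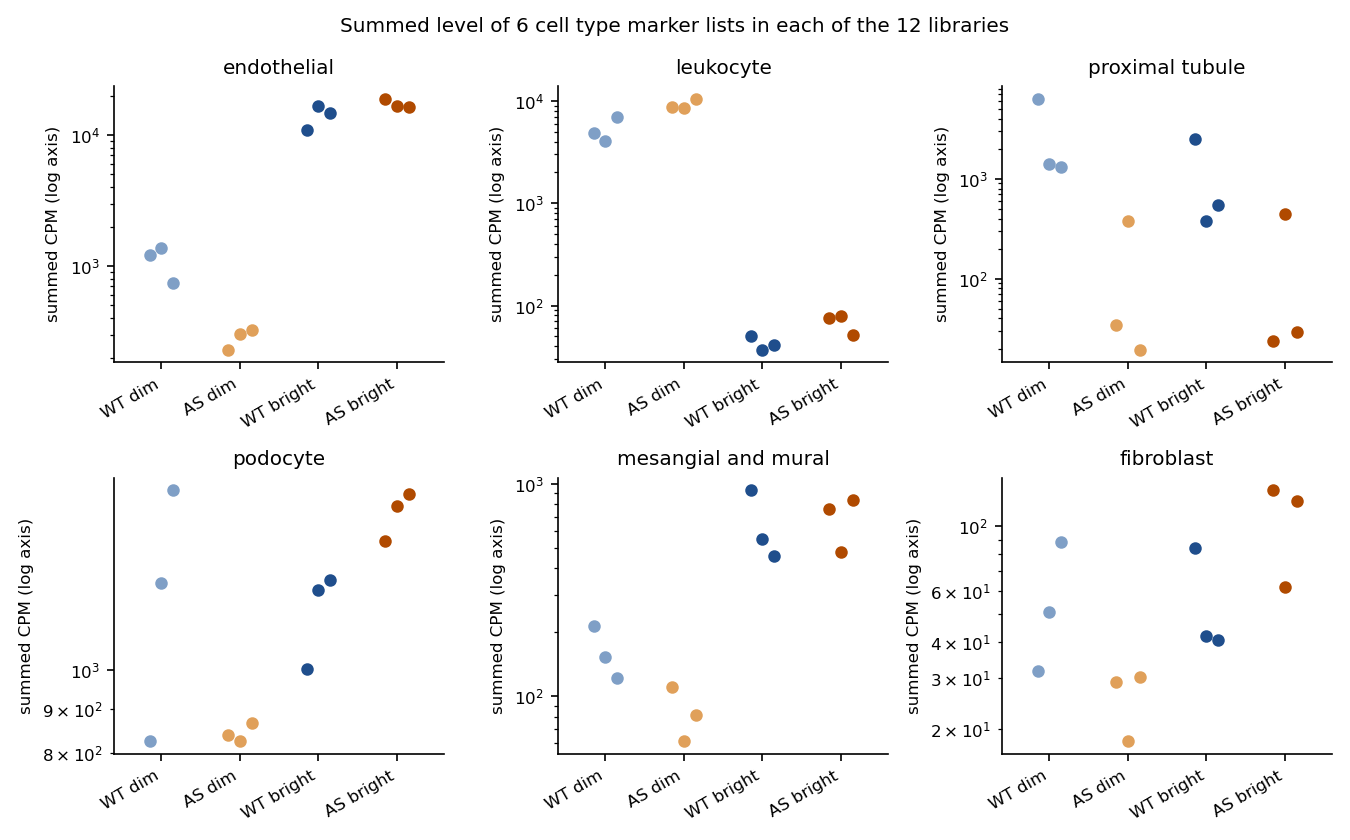
Summed CPM (log axis) of 6 cell type marker lists in each of the 12 libraries, by group, with 1 point per library. The dim libraries have leukocyte sums of 4084 CPM or more and endothelial sums of 1379 CPM or less, and the bright libraries endothelial sums of 10940 CPM or more and leukocyte sums of 79.2 CPM or less.

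*Tek*, the angiopoietin receptor gene, had 224, 203 and 124 counts in the 3 WT-dim libraries, 43, 31 and 29 in AS-dim, 2144, 3817 and 2659 in WT-bright and 3616, 3940 and 3379 in AS-bright. The 4 groups thus fall into 3 levels, AS-dim below WT-dim and both far below the bright groups, which overlapped each other. On the CPM scale this was 15.8 ± 4.75 (SD, n = 3) in WT-dim, 2.64 ± 0.368 (SD, n = 3) in AS-dim, 194 ± 70.2 (SD, n = 3) in WT-bright and 256 ± 8.83 (SD, n = 3) in AS-bright. Between the AS-bright mice *Tek* varied by only 3.46% (SD over mean), between the WT-bright mice by 36.2%.

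*Tie1*, the partner receptor, followed *Tek* closely, with 164, 236 and 118 counts in WT-dim, 26, 81 and 20 in AS-dim, 2155, 3322 and 2944 in WT-bright and 4270, 4000 and 3199 in AS-bright. AS-dim mouse 2 stood above the other AS-dim libraries but below all of WT-dim. The group means were 14.8 ± 5.01, 3.38 ± 2.89, 189 ± 50.4 and 268 ± 39.6 CPM (SD, n = 3 each), in the same order of groups. Per kilobase of exon, *Tie1* stood at 0.702 to 1.11 times *Tek* in WT-dim, 0.834 to 1.06 times in WT-bright and 0.907 to 1.13 times in AS-bright. In the low counts of AS-dim the ratio spread from 0.579 to 2.50.

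*Ptprb*, the gene of the phosphatase that acts on Tie2, was the most abundant of the 6 genes by group mean in WT-dim and both bright groups, with 22266, 35527 and 33506 counts in WT-bright and 19072, 24738 and 20797 in AS-bright. It had 2208, 2418 and 1247 counts in WT-dim and 253, 346 and 248 in AS-dim, where every AS library lay below every WT library. These are 168 ± 54.5, 22.1 ± 5.76, 2048 ± 577 and 1506 ± 113 CPM in WT-dim, AS-dim, WT-bright and AS-bright (SD, n = 3 each). Unlike *Tek* and *Tie1*, whose overlapping bright groups had the higher mean in AS, *Ptprb* had a lower mean in AS-bright, although 1 WT-bright library lay within the AS-bright range. The ratio of *Ptprb* to *Tek* per kilobase, which needs no scaling between libraries, was 3.29 to 4.45 in WT-bright and 1.86 to 2.22 in AS-bright, with no overlap. In the dim cells the same ratio was 3.48 to 4.21 in WT and 2.08 to 3.94 in AS, which overlapped.

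The 2 ligand genes differed in level and in spread. *Angpt1* was near the limit of detection throughout, with 8, 12 and 8 counts in WT-dim, 4, 5 and 3 in AS-dim, 28, 19 and 17 in WT-bright and 4, 21 and 4 in AS-bright. The AS-dim libraries were all below the WT-dim libraries, and 2 of 3 AS-bright libraries were below every WT-bright library. Summed over the 3 libraries of a group and scaled by library size, AS had 0.388 times the WT level in dim (95% interval 0.180 to 0.788) and 0.477 times in bright (0.297 to 0.751), where these exact intervals cover counting error only and not the spread between mice. *Angpt2* had 201, 223 and 41 counts in WT-dim, 26, 20 and 301 in AS-dim, 636, 339 and 278 in WT-bright and 619, 420 and 836 in AS-bright. AS-dim mouse 3 stood apart in *Angpt2*, since it had the highest count of all 6 dim libraries and the others the lowest. The same mouse had the highest *Angpt2* count of the bright libraries. The group means were 13.3 ± 8.56 CPM in WT-dim, 9.17 ± 12.9 in AS-dim, 27.6 ± 11.4 in WT-bright and 44.5 ± 16.7 in AS-bright (SD, n = 3 each). *Angpt2* exceeded *Angpt1* in every library, by 5.64 to 295 times per kilobase over the 12 libraries.

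*Svep1* had a pattern of its own. It had 66, 50 and 21 counts in WT-dim, 55, 27 and 27 in AS-dim, 2, 3 and 3 in WT-bright and 79, 93 and 45 in AS-bright. Of the 4 groups, WT-bright alone was near 0, and the dim groups and AS-bright overlapped each other. The means were 3.93 ± 2.03 CPM in WT-dim, 2.76 ± 0.977 in AS-dim, 0.179 ± 0.0464 in WT-bright and 5.03 ± 1.53 in AS-bright (SD, n = 3 each). Even in AS-bright *Svep1* remained a low gene, at 0.312 ± 0.0950 CPM per kilobase (SD, n = 3) against 54.2 ± 1.87 (SD, n = 3) for *Tek*.

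**Figure D2:**
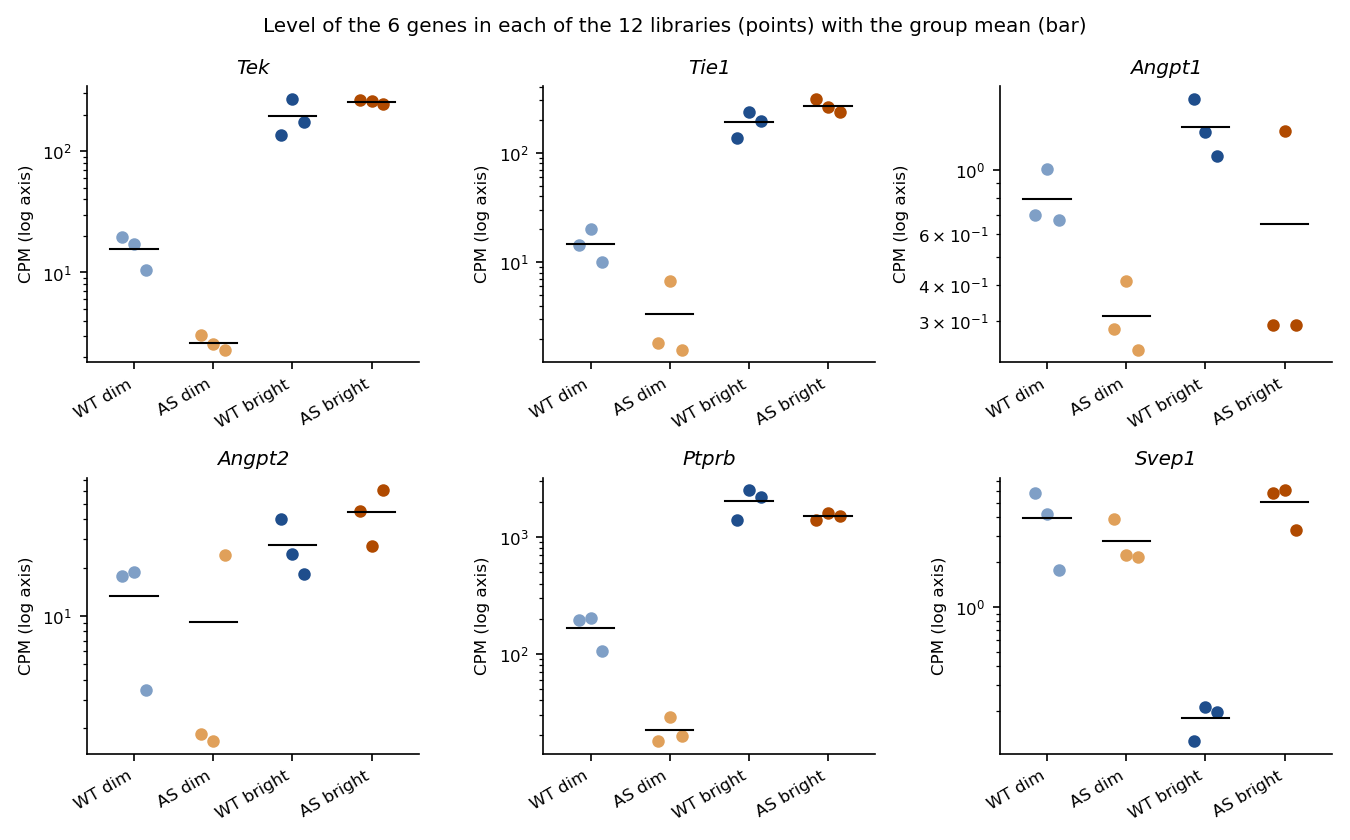
CPM (log axis) of the 6 genes in each of the 12 libraries, by group, where points are mice in the order 1 to 3 from left to right and bars the group mean. *Tek*, *Tie1* and *Ptprb* share 1 pattern, lowest in AS-dim and highest in the bright groups, whereas *Svep1* is at 0.214 CPM or less in WT-bright and at 1.77 CPM or more elsewhere.

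Ordered by CPM per kilobase of merged exon, *Ptprb* was highest in WT-bright at 154 ± 43.3 (SD, n = 3), followed by *Tek* at 41.2 ± 14.9 and *Tie1* at 38.4 ± 10.2, which did not differ beyond their spread, *Angpt2* at 7.47 ± 3.08, *Angpt1* at 0.272 ± 0.0636 and *Svep1* at 0.0111 ± 0.00288. AS-bright kept *Ptprb* at the top with 113 ± 8.46, then *Tie1* at 54.6 ± 8.05 and *Tek* at 54.2 ± 1.87, again overlapping, and *Angpt2* at 12.1 ± 4.54. At the bottom *Svep1* and *Angpt1* changed places, but their ranges overlapped in AS-bright. In WT-dim *Ptprb* stood at 12.6 ± 4.08, above *Angpt2*, *Tek* and *Tie1* at 3.001 to 3.61, whose ranges overlapped. In AS-dim *Angpt2* had the highest mean, 2.49 ± 3.48, with mouse 3 at 6.51 and the others at 0.498 or less, and *Ptprb* followed at 1.66 ± 0.43. *Ptprb* lay above *Tek* in every mouse (1.34 to 2.15 against 0.491 to 0.645), whereas the ranges of *Angpt2* and *Ptprb*, of *Ptprb* and *Tie1* and of *Tie1* and *Tek* overlapped.

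Bright and dim cells of the same genotype were compared to ask how the axis differs between the gates, with edgeR's quasi-likelihood test across all genes in both tables and Benjamini-Hochberg adjustment. The fit had no term for the mouse, although dim and bright libraries came from the same mice. In WT, the receptors and the phosphatase stood higher in bright cells, *Tie1* by a log2 fold change of 3.72 (SE 0.35), *Tek* by 3.67 (SE 0.36) and *Ptprb* by 3.65 (SE 0.35). These are differences of 12.2 to 12.8 times in mean CPM. The WT-dim values of these genes also enter the AS over WT contrast of dim that the list was chosen with, so they are a description with no test. The gates were sorted on a reporter that Cre from the *Tek* promoter switches on, so *Tek* is also not independent of the sort. *Svep1* went the other way, with a log2 fold change of -4.34 (SE 0.69). It passed the filter on low counts through WT-dim alone, and its low WT-bright values also enter the AS over WT contrast that the list was chosen with, so this value is a description with no test. With only 8 counts in all of WT-bright against 137 in WT-dim, the ratio of summed rates, dim to bright, was 22.0 (95% exact counting interval 10.9 to 51.9). *Angpt2* stood at 1.11 (SE 0.58) and *Angpt1* at 0.87 (SE 0.53), likewise as a description. Over all 14247 genes 25.3% were called, 13.8% higher and 11.5% lower.

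In AS the log2 fold changes of bright over dim were 6.58 for *Tek* (SE 0.22), 6.32 for *Tie1* (SE 0.43) and 6.08 for *Ptprb* (SE 0.25). The AS-dim levels of these genes, and the AS-bright level of *Svep1*, were among the values known when the list was drawn up, so their values in AS are a description with no test. In mean CPM these were 96.8, 79.3 and 68.1 times the dim level. *Angpt2* stood at 2.27 (SE 0.76), likewise a description with no test, since its AS levels enter the same contrasts. Its value moved to 1.78 without AS-dim mouse 1, 1.76 without mouse 2 and 4.65 without mouse 3. Without AS-bright mouse 1 or mouse 3 it was 2.28 or 1.99. *Svep1* stood at 0.84 (SE 0.41) in AS. *Angpt1* did not pass the filter on low counts. In this comparison 55.1% of 14052 genes were called and 28.6% were higher, so that calls were common here. All 14 endothelial markers rose from dim to bright in AS, with a median log2 fold change of 6.23, and 13 of 14 in WT, with a median of 3.63, although *Erg*, *Plvap* and *Sox17* in AS and *Plvap* in WT would not have passed the filter on the dim libraries alone. *Tek*, *Tie1* and *Ptprb* lay close to those medians in both genotypes. The 8 mesangial and mural markers tested were on the same side, with medians of 3.28 in AS and 2.32 in WT.

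**Figure D3:**
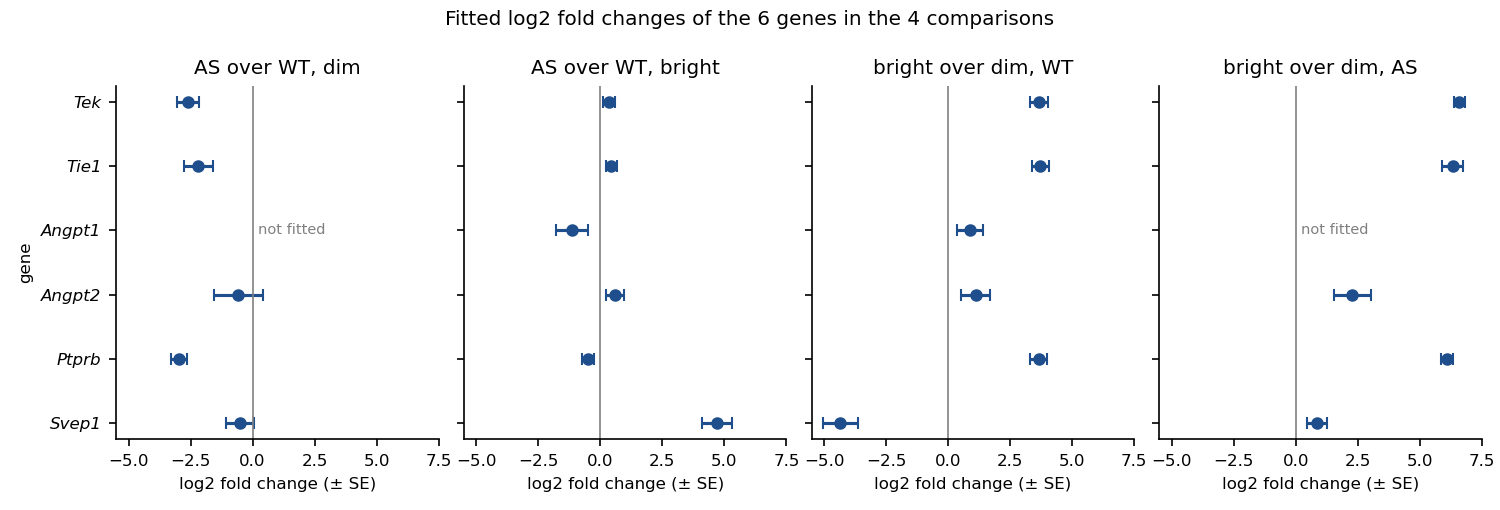
Fitted log2 fold changes with their standard errors (bars) for the 6 genes in the 4 comparisons, where *Angpt1* could not be fitted in AS over WT of dim and bright over dim of AS. *Tek*, *Tie1* and *Ptprb* lie at -2.18 to -2.96 in AS over WT of dim and at 3.65 to 6.58 in bright over dim, but on both sides of 0 in AS over WT of bright (0.34, 0.45 and -0.50), and *Svep1* has the value farthest from 0 of the 6 genes in AS over WT of bright (4.70) and in bright over dim of WT (-4.34).

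AS and WT were compared within each gate, the contrast that the study set out to make, and these are the values the list was chosen with. In the dim cells the log2 fold change of AS over WT was -2.60 for *Tek* (SE 0.44), -2.18 for *Tie1* (SE 0.59) and -2.96 for *Ptprb* (SE 0.33), with no overlap between genotypes in any of these genes. *Angpt2* stood at -0.58 (SE 0.98), a value that rests on AS-dim mouse 3, since without it the log2 fold change was -2.94. *Svep1* stood at -0.52 (SE 0.56), and *Angpt1* did not pass the filter on low counts. Of 13 endothelial markers tested 9 were called lower in AS-dim and none higher, with a median of -2.25, where 8.62% of all 14637 genes were called. Among these 9, *Sox17* would not have passed the filter on the AS-dim libraries alone. Without AS-dim mouse 1 the same test called 0 genes (2974 at an unadjusted p under 0.05), and without AS-dim mouse 3 it called 1. The values of *Tek* and *Tie1* lay within the range of the 13 markers, -3.25 to -0.73. *Ptprb* at -2.96 lay between *Sox17* at the low end and *Emcn* at -2.88. Over all genes the median was -0.02.

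In the bright cells the same comparison gave 0.34 for *Tek* (SE 0.24), 0.45 for *Tie1* (SE 0.23), -0.50 for *Ptprb* (SE 0.24), 0.60 for *Angpt2* (SE 0.37) and -1.13 for *Angpt1* (SE 0.65), and in each of these genes the AS and WT libraries overlapped. The *Angpt1* value moved to -2.32 without AS-bright mouse 2, the one AS-bright library with 21 counts. *Svep1* had a log2 fold change of 4.70 (SE 0.62), the highest of 14396 genes, and its value was 4.53 to 4.91 when any single library was left out. It passed the filter on low counts through AS-bright alone. Its rank and this range describe the contrast that the list was chosen with and are no test. Since WT-bright held 2 or 3 counts per library, the fitted value depends on the prior count, and the ratio of summed rates was 28.6 (95% exact counting interval 14.2 to 66.99). Among markers that moved in the same libraries, the fibroblast collagen gene *Col1a2* was higher in AS-bright by 1.69 (SE 0.29, adjusted p = 0.0412 from the quasi-likelihood test), a call that was lost with edgeR's version 3 fit and without WT-bright mouse 3, AS-bright mouse 1 or AS-bright mouse 3. The 4 of 6 fibroblast markers listed there summed to 61.7 to 133 CPM in AS-bright and 40.4 to 84.2 CPM in WT-bright, which overlapped. *Col3a1* and *Lum* were not listed in the bright table. Other lists did separate the genotypes. The 4 of 5 lymphatic endothelial markers listed summed to 31.7 to 58.4 CPM in WT-bright and 61.7 to 75.3 CPM in AS-bright, the 9 podocyte markers to 1002 to 1273 and 1415 to 1602 CPM, and the 8 listed leukocyte markers to 37.1 to 50.3 and 51.2 to 79.2 CPM. Within the lymphatic list *Flt4* alone separated (23.7 to 33.9 against 39.4 to 50.6 CPM), while *Prox1*, *Lyve1* and *Pdpn* overlapped. Within the leukocyte list *Lyz2* alone did (8.98 to 29.4 against 37.5 to 58.7 CPM). The 7 markers of the loop, distal tubule and collecting duct were lower in AS-bright, at 24.2 to 219 CPM against 382 to 527 CPM in WT-bright. The part of these cell types in the *Svep1* values was not tested.

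The difference between both genotype effects, that in bright minus that in dim, was 5.24 for *Svep1* (SE 0.82), 2.96 for *Tek* (SE 0.44), 2.65 for *Tie1* (SE 0.58), 2.48 for *Ptprb* (SE 0.41), 1.23 for *Angpt2* (SE 1.11) and 0.27 for *Angpt1* (SE 0.86). It is made of the same contrasts and is likewise a description. Of the 14 endothelial markers 10 were called higher, with a median of 2.59, where 3.77% of 15084 genes were called (569 genes, or 877 with the mouse as a block).

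Because the share of endothelial RNA differed so much between groups, each gene was also set against the endothelial markers of its own library, as log2(CPM + 0.5) minus the mean of the same over the 14 markers. That mean was 5.09 ± 0.50 in WT-dim, 3.17 ± 0.26 in AS-dim, 8.47 ± 0.23 in WT-bright and 8.95 ± 0.12 in AS-bright (SD, n = 3 each, log2 scale). *Tek* then stood at -1.11 ± 0.22 in WT-dim, -1.53 ± 0.42 in AS-dim, -0.93 ± 0.34 in WT-bright and -0.95 ± 0.13 in AS-bright, and AS and WT overlapped in both gates. Against *Pecam1*, *Cdh5* and *Erg* alone, AS minus WT of *Tek* in dim moved from -0.41 to -0.95 and the genotypes no longer overlapped. *Tie1* stood at -1.21 ± 0.12, -1.46 ± 1.03, -0.95 ± 0.19 and -0.89 ± 0.21 and likewise overlapped. The relative levels of both receptor genes thus lay between -1.53 and -0.89 over the 4 group means.

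*Ptprb* did not keep to this. Its relative level was 2.24 ± 0.10 in WT-dim and 1.30 ± 0.39 in AS-dim, and 2.48 ± 0.22 in WT-bright and 1.61 ± 0.23 in AS-bright (SD, n = 3 each). AS minus WT was -0.95 in the dim and -0.87 in the bright cells, and in neither gate did the genotypes overlap. *Svep1* was higher in AS relative to the markers in both gates, -3.07 ± 0.41 in WT-dim against -1.51 ± 0.65 in AS-dim and -9.04 ± 0.13 in WT-bright against -6.52 ± 0.50 in AS-bright, again without overlap. The bright difference of 2.52 depends on the pseudocount at so low a level in WT-bright, and was 3.69 with 0.1 in place of 0.5. In the dim cells that is the reverse of its CPM, whose mean was lower in AS than in WT, since the marker mean differed by more. *Angpt2* had relative levels of -1.61 ± 0.82 in WT-dim and -0.85 ± 1.78 in AS-dim, and of -3.74 ± 0.78 in WT-bright and -3.53 ± 0.48 in AS-bright, with overlap in both. Bright minus dim, its relative level was -2.13 in WT and -2.67 in AS, without overlap between the gates. *Angpt1* stood at -4.73 ± 0.37 in WT-dim and -3.48 ± 0.33 in AS-dim against -7.55 ± 0.46 in WT-bright and -8.87 ± 0.84 in AS-bright. The genotypes did not overlap in either gate with the pseudocount of 0.5 but did in both with 0.1, so its relative level gives no difference between AS and WT that holds at these counts.

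**Figure D4:**
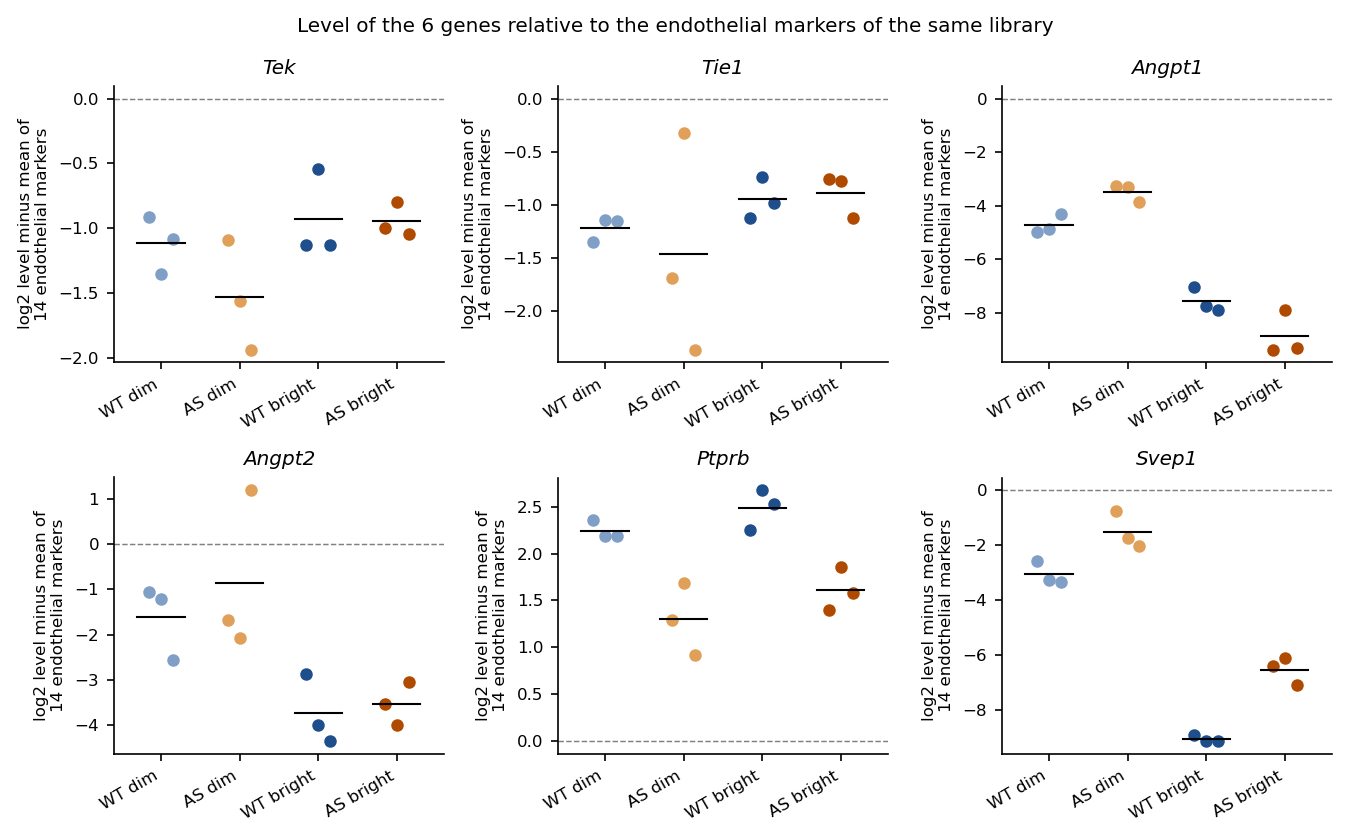
Level of the 6 genes relative to the endothelial markers of the same library (log2 CPM plus 0.5, minus the mean of 14 markers), with 1 point per mouse and bars for group means. The group means of *Tek* and *Tie1* lie between -1.53 and -0.89, although the AS-dim libraries of *Tie1* spread from -2.36 to -0.33, *Ptprb* is lower in AS than in WT in both gates (1.30 against 2.24 and 1.61 against 2.48), and *Svep1* and *Angpt1* are far lower in the bright groups.

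Over the 12 libraries, which share the strong difference between gates, log2 CPM of *Tek* followed that of *Ptprb* (Pearson r = 0.988) and of *Tie1* (0.984) and, less closely, of *Angpt2* (0.750), and that of *Svep1* hardly (-0.285). Of 12650 other genes the most like *Tek* in pattern were *Fermt2* (0.998), *Plxna2* (0.997) and *Prickle2* (0.997), and the most like *Tie1* were *Olfr1396* (0.994), *Ltbp1* (0.993) and *Unc45b* (0.992). *Ptprb* was most like *Wwc2* (0.998), *Epas1* (0.997), which encodes the hypoxia-inducible factor 2α, and *Ntn4* (0.996). *Angpt2* was most like *Mrpl49* (0.949), *Sigirr* (0.926) and *Ntrk2* (0.926). *Svep1* had no close match, the highest being *Rtcb* (0.872), *Eif2s3x* (0.863) and *Eef1a1* (0.851), and neither had *Angpt1*, with *Sec62* (0.902), *Elf3* (0.896) and *Rn7s6* (0.881). These values describe 12 libraries of 6 mice and carry no test.

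Other genes of the pathway were taken from 5 lists of 42 genes in all. The lists were drawn up with earlier results of these data known, which limits every p given for their genes. Between dim and bright cells 10 of 37 tested differed in WT (7 higher and 3 lower in bright) and 22 of 36 in AS (14 higher and 8 lower), 9 of them in both genotypes. These shares are near the 25.3% and 55.1% of all genes called in the same comparisons. *Dok2* and *Mmp14* in WT and *Dok2* and *Angptl4* in AS would not have passed the filter on the libraries of the lower group alone, so these values are given below without a p. AS over WT gave 5 calls among 38 tested in dim (2 higher and 3 lower), where 8.62% of all genes were called, and none among 37 in bright by edgeR's quasi-likelihood test, where 0.452% of all genes were called. In that comparison 13 of the 37 had an unadjusted p under 0.05, beside 21.8% of all genes, and DESeq2 called 6, beside 6.69% of all genes. The 5 calls in dim became 0 without AS-dim mouse 1 or 3 and 1 without AS-dim mouse 2 or WT-dim mouse 2.

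Among ligands related to the angiopoietins, *Angptl2*, which encodes a secreted angiopoietin-like protein, was the highest by RPKM. It stood at 31.4 to 60.0 CPM in WT-dim, 9.26 to 22.1 in AS-dim, 17.5 to 26.8 in WT-bright and 36.4 to 39.1 in AS-bright, and AS and WT did not overlap in either gate. AS over WT it was lower in dim by a log2 fold change of -1.74 (SE 0.40, adjusted p = 0.0384), a call that held in only 6 of 14 alternatives. In bright it was at 0.73 (SE 0.26, adjusted p = 0.154), and the difference of these effects was 2.52 (SE 0.49, adjusted p = 0.0131). *Angptl2* was the only call for that difference among 37 related genes tested, beside 3.77% of all genes, so a count of 1 is no more than the background. Of the 37 genes 9 had an unadjusted p under 0.05, beside 18.5% of all genes, and DESeq2 called 3 of the related genes, beside 7.67% of all genes. *Angptl4*, known as an inhibitor of lipoprotein lipase, stood at 2.41 in bright over dim of AS (SE 0.44). *Angpt4*, the remaining Tie2 ligand gene, was listed in the bright table alone, at 0.253 to 1.18 CPM in WT and 1.68 to 5.25 CPM in AS (log2 fold change 2.04, SE 0.65, adjusted p = 0.123). *Angptl6* stood at 0.46 (SE 1.01, adjusted p = 0.828) in the same comparison.

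Of the adaptors and effectors of Tie2, *Nos3*, the endothelial nitric oxide synthase gene, was higher in bright cells by 2.82 in WT (SE 0.52, adjusted p = 0.00398) and by 5.05 in AS (SE 0.45, adjusted p = 7.18e-06). *Rasa1* (1.15, SE 0.30, adjusted p = 0.0203) was higher in bright cells of WT, and *Nck1* and *Shc1* in those of AS, by 1.45 and 1.06 (adjusted p of 0.00166 and 0.00126). *Dok2*, an adaptor gene known best from blood cells, had log2 fold changes of -6.74 in WT and -5.37 in AS, which depend on the prior count at so low a level, from 13.0 to 22.7 CPM in the dim libraries to 0.582 CPM or less in the bright ones. *Grb2* was lower in bright cells in both genotypes (-1.05 and -1.21), and *Pik3r1* (-1.29) and *Foxo3* (-0.53) in AS. *Akt1* and *Foxo1*, with *Grb2* the highest of this list by RPKM, passed in none of the 4 comparisons, with log2 fold changes of -0.15 to 0.84. In AS over WT, *Grb7* alone of 18 passed in dim (-3.51, SE 0.75, adjusted p = 0.0316) and none of 17 in bright, where 6 had an unadjusted p under 0.05 and DESeq2 called 2, in the comparison with 21.8% and 6.69% of all genes.

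The integrin subunit genes hold the partner of SVEP1. *Itga9*, which encodes the α9 subunit, was at 14.3 to 18.5 CPM in WT-dim, 7.21 to 21.2 in AS-dim, 75.04 to 111 in WT-bright and 168 to 231 in AS-bright. It was higher in bright cells by 2.55 in WT (SE 0.29, adjusted p = 0.000254) and by 3.98 in AS (SE 0.35, adjusted p = 6.6e-06). AS over WT it stood at 1.06 in bright (SE 0.22, adjusted p = 0.0560), just short of the threshold although the genotypes did not overlap. Its β1 partner *Itgb1* had 1.05 and 1.85 in bright over dim (adjusted p of 0.00652 and 1.04e-05) and 0.94 in AS over WT of bright (SE 0.20, adjusted p = 0.0562), where 426 to 568 CPM in WT-bright faced 915 to 1020 CPM in AS-bright. *Itgb5* was lower in AS-dim (-1.10, SE 0.21, adjusted p = 0.0254) and *Itga5* higher (0.95, SE 0.23, adjusted p = 0.0412). In bright over dim of AS *Itgb5* rose by 1.01 and *Itga5* and *Itgav* fell by 0.72 and 0.65.

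Of the proteases that can shed Tie1 or Tie2, *Mmp14*, a membrane-bound matrix metalloproteinase gene, stood at 3.41 in bright over dim of WT (SE 0.82) and was higher in bright cells of AS by 4.15 (SE 0.29, adjusted p = 1.19e-06). It had 2.89 to 16.8 CPM in WT-bright and 34.0 to 44.7 CPM in AS-bright, an AS over WT difference of 1.99 (SE 0.46) that did not pass (adjusted p = 0.0656). *Adam17* was lower in bright cells of AS with a log2 fold change of -0.66 (SE 0.19, adjusted p = 0.0163).

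Among transcription factors known to act on the *Tek* and *Tie1* promoters, the haematopoietic and endothelial factor genes *Tal1* and *Gata2* were higher in bright cells in both genotypes. *Tal1* rose by 3.16 in WT (SE 0.41, adjusted p = 0.00052) and 4.54 in AS (SE 0.40, adjusted p = 6.86e-06), and *Gata2* by 2.90 (SE 0.41, adjusted p = 0.000878) and 1.80 (SE 0.18, adjusted p = 1.47e-05). The ETS factor gene *Elf4*, abundant in blood cells, was lower in bright cells, by log2 fold changes of -2.18 and -2.51, and was higher in AS-dim than in WT-dim (1.03, SE 0.23, adjusted p = 0.0367). *Elf1*, *Elf2* and *Gata3* rose from dim to bright in AS by 0.84, 0.71 and 2.01. *Ets1* and *Ets2*, the highest of the list by RPKM, passed in none of the 4 comparisons, with log2 fold changes of -0.33 to 0.59.

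**Figure D5:**
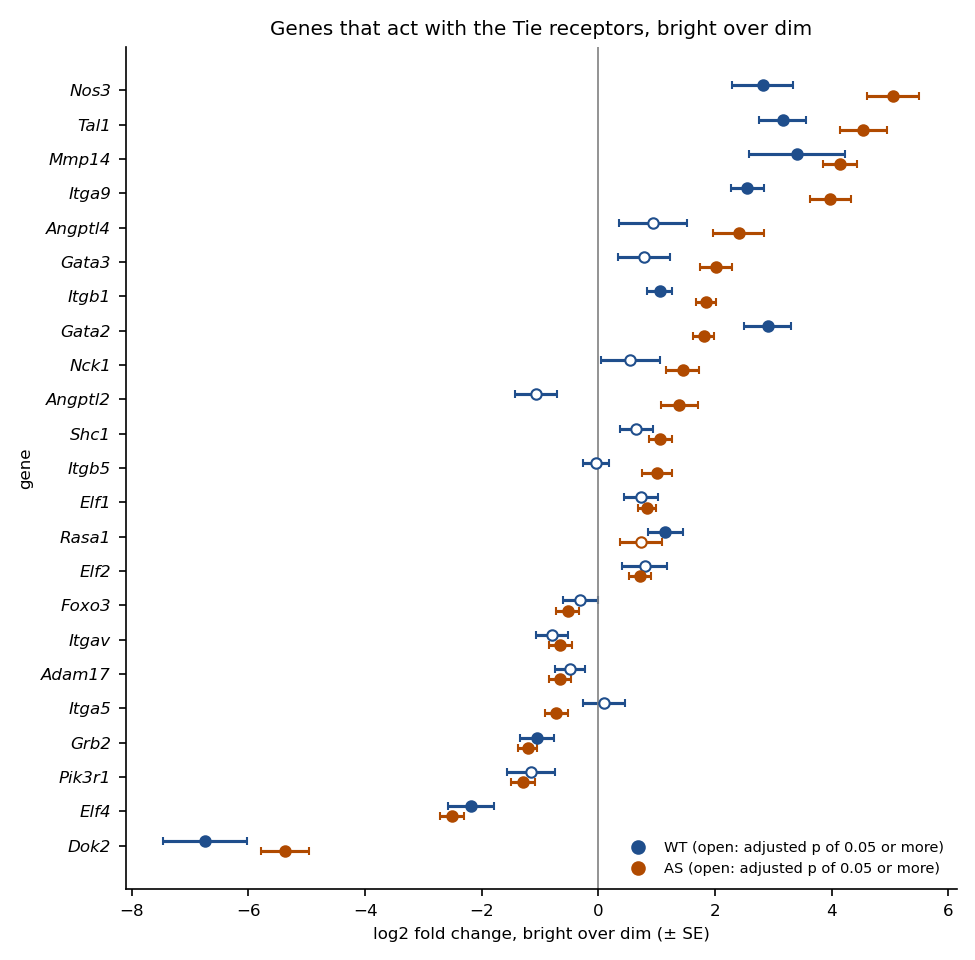
Log2 fold change of bright over dim with its standard error for the 23 related genes called in at least 1 genotype, in WT (blue) and AS (orange), where filled points passed an adjusted p of 0.05. *Nos3*, *Tal1*, *Mmp14* and *Itga9* lie at 2.55 or more in both genotypes, *Dok2* is lowest at -6.74 and -5.37, and *Angptl2* lies on opposite sides of 0 (-1.07 in WT and 1.39 in AS).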

How the data were processed

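The authors sequenced stranded poly-A libraries (KAPA kit, HiSeq 4000), aligned them with STAR 2.6.0c to GRCm38.p5 with Gencode M16 and deposited the reads STAR counted per gene, so the deposited counts are not normalized. The authors also deposited RPKM, per kilobase of a gene length that counts exons shared by transcripts repeatedly (1.11 to 2.93 times the merged exons of Gencode M21), so levels between genes use merged exons. The tables' log2 fold changes, logCPM, likelihood ratio score, p-values and FDR of AS over WT were not used. ERCC spike-ins (92 rows per table) were left out. Counts on genes per library were 11440169 to 15074909. Replicates differed beyond sampling noise (chi-square of 29.5 to 104 per degree of freedom over 12 pairs). Separate mice are the replicates.

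Tests used edgeR 4.0.16 (R 4.3.3), the version 4 quasi-likelihood fit with TMM, filterByExpr and a Benjamini-Hochberg adjusted p under 0.05 over all genes. The SE is the log2 fold change divided by the root of F. CPM use TMM sizes over the 12 libraries. Alternatives included DESeq2 1.42.0, and edgeR's version 3 fit was added after the data were seen. The fits were tested on simulated data.

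Members and lists were chosen with earlier results of these data known, and a gene of the list of Tie2 adaptors and effectors is not reported here. Named were the 6 genes, *Col4a5*, markers, related genes that passed or were among the 3 highest by mean RPKM of their list, and for likeness the 3 genes of highest r among those with average logCPM above 1. Sample descriptions name each library by mouse number and gate, so dim and bright libraries of the same mouse are paired. Their deviations from group means correlated by 0.213 in WT and 0.262 in AS on average (-0.106 and -0.128 between mice). The main bright over dim tests did not use this pairing. With the mouse as a block, 4442 genes (31.2%) were called in WT and 7756 (55.2%) in AS. The block changed no call among the 6 genes.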

Additional observations from a re-analysis of the deposited data

Results flagged for a closer look

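*Angptl2* was the single gene of the 37 related genes tested for which the genotype effect differed between the gates by edgeR's quasi-likelihood test of the difference itself, 2.52 on the log2 scale (SE 0.49, adjusted p = 0.0131). Beside the 3.77% of all genes called for this difference, 1 of 37 is no more than the background. AS over WT stood at -1.74 in dim and 0.73 in bright, all 3 AS-dim libraries lay below and all 3 AS-bright libraries above their WT counterparts, and the difference passed in 20 of 20 alternatives (2.22 to 3.02, adjusted p of 0.000255 to 0.0474). Its fall in dim passed in 6 of 14.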

How the results depend on the processing

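The counts of all genes called depended on the tool and on single libraries for AS over WT, and much less for bright over dim, where they stayed at 2533 to 3436 in WT and 6652 to 7488 in AS when each library was left out in turn. AS over WT of dim gave 1262 calls, and 2395 with DESeq2, 494 with a replicate block (different mice that share a number, with deviations correlated by -0.066 on average), 582 with edgeR's version 3 fit and 0 to 1823 without 1 library. It gave 0 without AS-dim mouse 1 (2974 genes at an unadjusted p under 0.05) and 1 without AS-dim mouse 3. AS over WT of bright gave 65 calls, and 39 with every gene, 1168 with DESeq2, 897 with the likelihood ratio test, 16 with a replicate block, 0 with the version 3 fit (2906 at an unadjusted p under 0.05) and 0 to 281 without 1 library, with 0 without WT-bright mouse 3 or AS-bright mouse 1 or 3 (1812 to 2713 at an unadjusted p under 0.05). The difference of genotype effects gave 569 calls, and 1203 with DESeq2, 1092 with the likelihood ratio test, 877 with a replicate block of the mouse and 252 to 856 without 1 library. The cause was not tested.

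For bright over dim, leaving out 1 library gave log2 fold changes in WT of 3.38 to 3.86 for *Tek*, 3.51 to 4.01 for *Tie1*, 3.42 to 3.85 for *Ptprb* and -4.68 to -3.97 for *Svep1*. In AS it gave 6.49 to 6.70, 5.99 to 7.24 and 5.95 to 6.29 for the first 3 of these. *Angpt2* in AS ranged from 1.76 to 4.65, and stood at 2.26 with DESeq2 and 2.27 with the version 3 fit. In WT the values of *Tek*, *Tie1* and *Ptprb* kept their sign in all 14 alternatives. No value of the 6 genes that was called in a comparison changed sign in any alternative run. Relative to *Pecam1*, *Cdh5* and *Erg* alone, the AS minus WT difference in dim moved to -0.95 for *Tek* and -1.48 for *Ptprb*. With a pseudocount of 0.1 the *Svep1* difference in bright was 3.69 and *Angpt1* overlapped in both gates. *Ptprb* and *Svep1* did not overlap under any of the 3 alternatives of the relative level. Depth limits *Angpt1* and, in WT-bright, *Svep1*, at 28 counts per library or fewer.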
